A study of Mus musculus with 34 samples.

Results

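Chemokines are small secreted proteins that draw leukocytes along a gradient, and their receptors are G protein-coupled receptors on the cells that move. The members described here are all genes of the deposited table whose symbol names a chemokine ligand or a classical chemokine receptor (Ccl, Cxcl, Cx3c and Xc ligands and the matching Ccr, Cxcr, Cx3cr1 and Xcr1 receptors). The rule uses the symbol alone and no measured value, and it gave 57 genes of 35976 symbols. Of these, 39 were ligands and 18 were receptors.

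Total RNA was measured in 34 mouse livers, with 1 library per liver. Every mouse, controls included, was of the genotype C57BL/6 with homozygous TetO-Cas9 and homozygous Rosa-rtTA, had received an adeno-associated virus (AAV) with a guide RNA, and was on a Western diet for 3 months. The knockout (KO) groups were given guides to Bcl6 (5 livers), Irs1 (5), Smyd2 (6), Srebf1 (5) or Tbx3 (7). The control group of 6 pooled 4 livers given sgGFP and 2 given sgLacZ, guides to genes that mice do not carry. Cas9 in these mice depends on rtTA expressed from the Rosa locus, which is active in most tissues. The sources used here do not give the age of the mice, the promoter in the virus or the share of cells edited.

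In a liver under a Western diet, chemokines are best known for bringing in monocytes and lymphocytes. The receptor CCR2 and its ligand CCL2 bring bone marrow monocytes into the tissue, CX3CR1 marks monocytes and some macrophages, and CXCR3 is carried by T cells and natural killer cells among others. Hepatocytes, endothelium, stellate cells and Kupffer cells, the resident macrophages, can all make chemokines.

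The values are FPKM, read counts scaled to transcript length and to the depth of the library, and the depth implied by the smallest steps between values was 2110000 to 3130000 reads per library. Changes are given as log2 changes on the log2(FPKM + 1) scale against the 6 controls, with p-values from limma after Benjamini-Hochberg adjustment across the 19295 genes that entered the fit, called at 0.05. On this scale the change of a gene with few reads is understated. Of the 57 members, 40 reached an FPKM of 1 in at least 5 livers and were tested. Another 10 were above 0 in some liver but under that filter, and 7 were listed at 0 in all 34 livers (Ccl19, Ccl21a, Ccl21b, Ccl21c, Ccl27b, Cxcl3 and Cxcl15). Ccl21a, Ccl21b and Ccl21c are near-identical copies, as are Ccl27a and Ccl27b, so reads may have been split or dropped among them.

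The mRNA of the targeted gene checked few of the labels. Srebf1 mRNA was at an FPKM of 498.8 to 631.7 in 4 Srebf1 KO livers against 1095 to 2177 in the controls. The library labelled Srebf1 KO 1 held 1908, within the control range. The results for Srebf1 KO livers are followed by their values without it. The mRNA of Bcl6, Irs1, Smyd2 and Tbx3 overlapped the controls in the livers given those guides. Irs1 mRNA was mostly higher in Irs1 KO livers, at 25.4 to 35.8 FPKM (median 28.9) against 20.2 to 27.6 (median 22.9). The median was also higher for Tbx3 (103.5 against 86.08) and lower for Bcl6 (60.4 against 71.9) and Smyd2 (91.67 against 121.5). Across the 40 tested members the liver Tbx3 KO 7 was the highest of all 34 for 7 members and among the 3 highest for 16. The corresponding counts were 6 and 12 for sgGFP 3, 6 and 9 for sgGFP 2, and 3 and 10 for Smyd2 KO 6.

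The most abundant member was Cxcl12, the ligand of CXCR4 and a constitutive stromal chemokine, with a mean of 283.9 FPKM over the 34 livers and a range of 185.6 to 398.0. Cxcl16, a membrane-bound ligand of CXCR6, followed with 115.8 FPKM, and then Ccl9 with 78.6 and Ccl25 with 47.5. Cxcl1, a neutrophil attractant, had a mean of 32.9 FPKM. Ccr2 (28.1), Cx3cr1 (27.3) and the CXCR3 ligand Cxcl9 (25.7) came next, and their ranges over the livers overlapped widely. The monocyte ligand Ccl2 was low, with a mean of 3.30 FPKM, which corresponded to a median of 7 reads per liver and at most 29. Only 14 of the 40 tested members were above 0 in every liver.

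**Figure D1:**
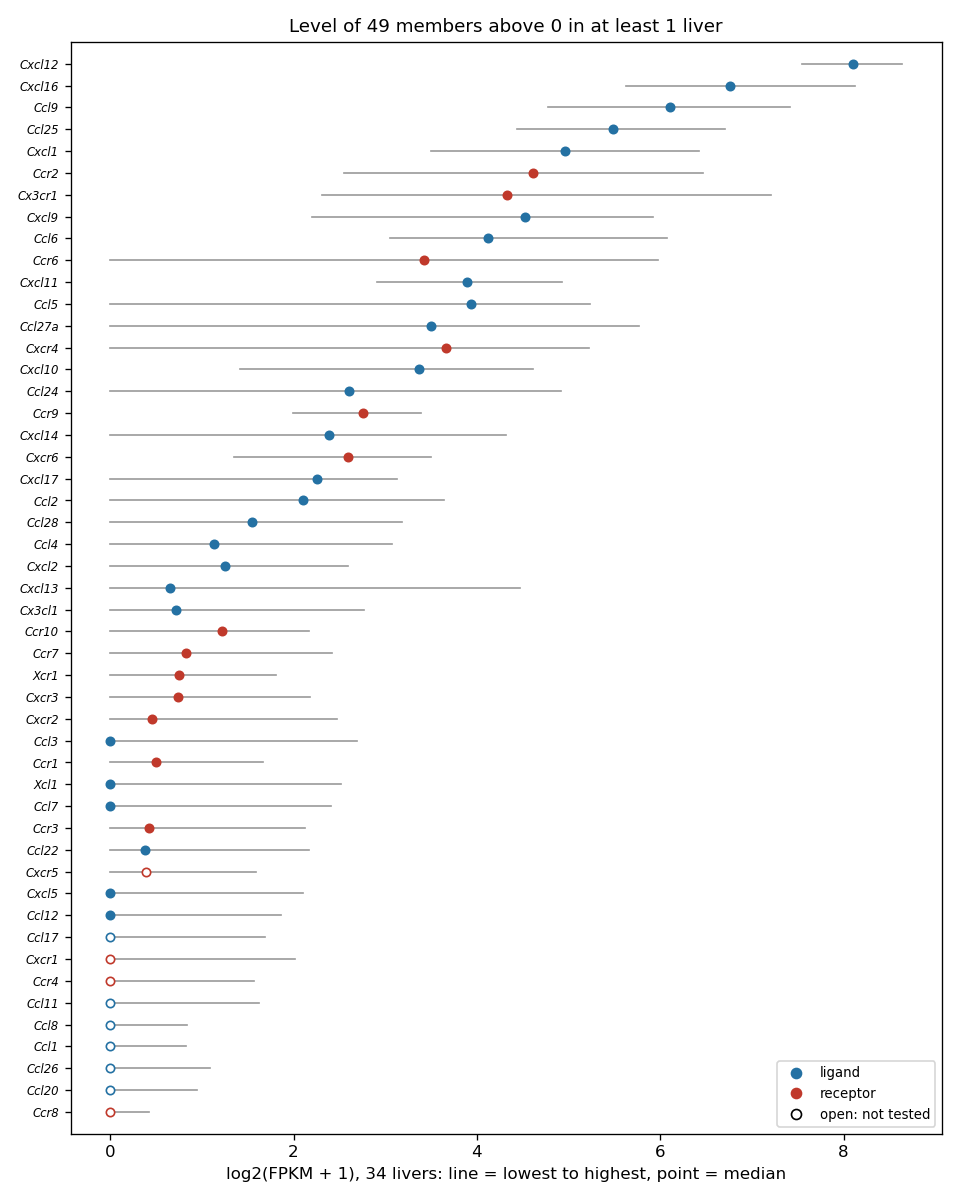
Level of 49 members that were above 0 in at least 1 of the 34 livers, on the log2(FPKM + 1) scale. Each line runs from the lowest to the highest liver and the point is the median (blue for ligands, red for receptors, open where the member was not tested). Cxcl12 stands highest, with no liver below 185.6 FPKM, and receptors such as Ccr6 and Cxcr4 range down to 0.

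Most members lie in a few gene blocks, on the mm10 annotation. A block of 11 Ccl genes on chromosome 11 spans chr11:82035571-83664683 and holds Ccl2, Ccl7, Ccl5, Ccl9 and Ccl6. A block of 8 Cxcl genes at chr5:90759360-92365485 holds Cxcl1, Cxcl9, Cxcl10 and Cxcl11. Receptor genes lie together on chromosome 9, among them Ccr9, Cxcr6, Xcr1, Ccr1, Ccr3 and Ccr2. Cx3cr1 is annotated at chr9:119901616-120069879, where it overlaps other genes on both strands, among them Wdr48 and Csrnp1.

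The sequences shown are the 250 bases before the start of Ccl9, the member with the smallest p of any knockout, and of 3 myeloid receptor genes that were lower together in Irs1 KO livers. They are RefSeq windows on GRCm38.p6, written on the gene's own strand. Capitals mark matches, on either strand, to one of 2 motifs. The first is the promoter element with the letters TATAAA. The second, with the letters GAGGAA, is the core bound by PU.1, the lineage factor of myeloid cells.
Ccl9, chr11:83578637-83578886, minus strand: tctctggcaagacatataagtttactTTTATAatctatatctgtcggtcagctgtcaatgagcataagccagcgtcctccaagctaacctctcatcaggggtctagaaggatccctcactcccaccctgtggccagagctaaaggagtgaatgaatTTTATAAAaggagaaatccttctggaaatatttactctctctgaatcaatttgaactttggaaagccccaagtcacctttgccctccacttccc
Ccr2, chr9:124101933-124102182, plus strand: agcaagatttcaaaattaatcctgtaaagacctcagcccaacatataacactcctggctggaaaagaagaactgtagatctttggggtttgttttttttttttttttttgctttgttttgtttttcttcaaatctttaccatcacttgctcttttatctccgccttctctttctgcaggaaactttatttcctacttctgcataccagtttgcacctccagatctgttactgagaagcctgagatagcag
Cx3cr1, chr9:120068297-120068546, minus strand: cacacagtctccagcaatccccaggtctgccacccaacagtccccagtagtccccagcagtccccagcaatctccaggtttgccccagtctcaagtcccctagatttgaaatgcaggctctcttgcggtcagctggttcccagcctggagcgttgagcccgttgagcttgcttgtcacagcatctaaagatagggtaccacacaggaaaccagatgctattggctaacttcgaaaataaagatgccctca
Ccr1, chr9:123968693-123968942, minus strand: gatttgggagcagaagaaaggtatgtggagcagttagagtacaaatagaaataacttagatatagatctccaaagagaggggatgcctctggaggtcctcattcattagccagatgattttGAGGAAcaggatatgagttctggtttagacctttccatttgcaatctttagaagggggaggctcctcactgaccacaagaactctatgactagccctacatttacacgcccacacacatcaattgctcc

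The Ccl9 window held TATAAA 224, 94 and 92 bases before the start, the last pair overlapping on opposite strands, and the Ccr1 window held GAGGAA 129 bases before it. The windows of Ccr2 and Cx3cr1 held neither. Among the 41 members with a RefSeq window, TATAAA was found in 12 and GAGGAA in 14, counting a member when any of its windows matched. Counted in the same way, 14.33% and 25.85% of 27025 genes with a window of this length held them. A motif of the kind bound by NF-kB was found in 7 members, against 3.8% of those genes, and the 7 members included Cxcl1, Cxcl2 and Cxcl10. A match is a description of these letters and not a bound site.

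Across the 5 knockouts, 9 of 40 tested members passed the test against controls in Irs1 KO livers and 1 in Bcl6 KO livers. None passed in Smyd2, Srebf1 or Tbx3 KO livers. The comparisons share the same 6 control livers. The sgGFP and sgLacZ livers did not differ for any member by limma's adjusted p, where 0.0104% of all genes did, and 5 of 40 members had an unadjusted p under 0.05, against 6.68% of all genes.

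**Figure D2:**
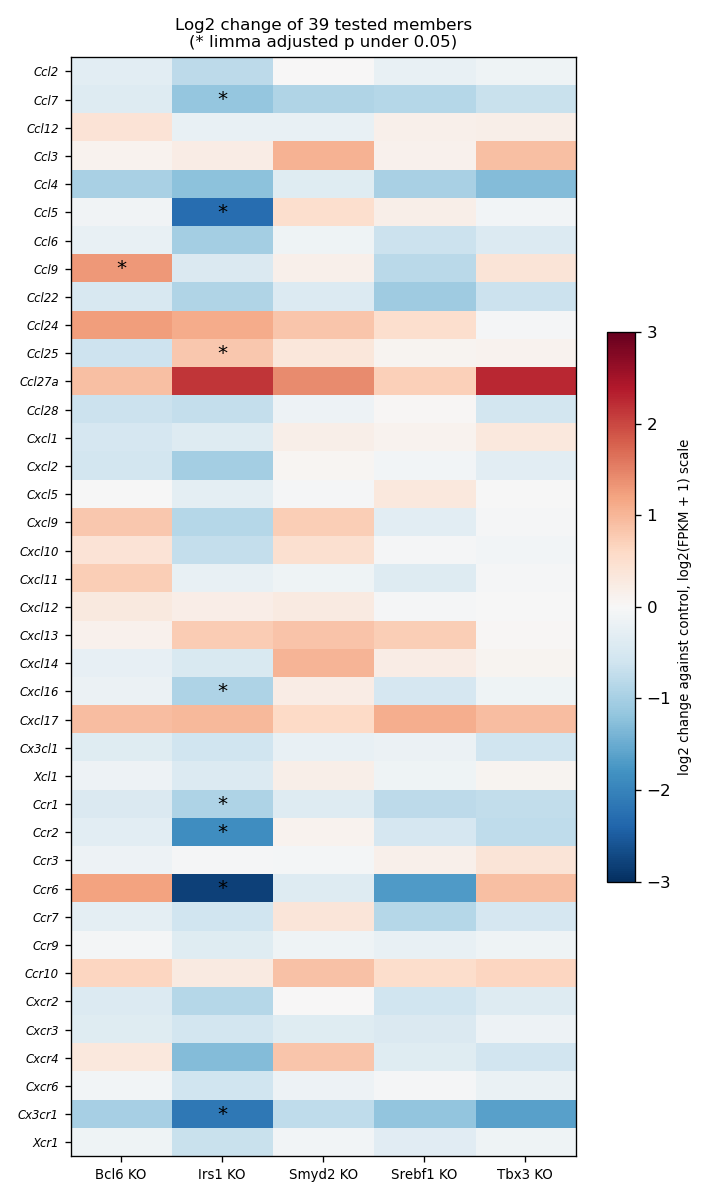
Log2 change against control of 39 tested members (rows, ordered by role) in the 5 knockouts (columns), with blue for lower and red for higher. Stars mark limma adjusted p under 0.05: 8 stars stand in the Irs1 KO column, 7 of them for lower members, 1 in the Bcl6 KO column, and none in the others.

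In Irs1 KO livers most of the called members were lower, and most of these were receptors of monocytes, macrophages and lymphocytes. Ccr2, Cx3cr1, Ccr6 and Ccr1 were among the receptors that fell, and Ccl5, Cxcl16 and Ccl7 fell among the ligands, while Ccl25 rose. Thus 8 of 40 tested members (20.0%) were called lower, where 7.61% of all genes were, and 1 was called higher, where 3.24% of all genes were. The fall covered 5 of 14 tested receptors and 3 of 26 tested ligands. The median log2 change was −0.594 over the members and −0.12 over all genes tested, and 32 of the 40 members were below 0. With the libraries scaled to a common median, the median over all genes was 0.01 and that over the members −0.51. An unadjusted p under 0.05 was reached by 18 members, or 45.0%, against 25.2% of all genes. Since bulk RNA mixes all cells of the liver, fewer cells of a type and less RNA per cell cannot be told apart.

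Ccr2, the receptor through which monocytes answer CCL2, stood at 13.7, 11.2, 4.88, 7.92 and 6.83 FPKM in the 5 Irs1 KO livers. The controls ran from 15.5 to 87.2 with a median of 28.8. Every Irs1 KO liver was below every control liver (log2 change −1.87, SE 0.44, limma adjusted p = 0.00569). The highest control value came from sgGFP 3, and without that liver the change was still past the threshold, as it was without any other single liver (limma adjusted p up to 0.0211).

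Cx3cr1, the receptor for fractalkine (CX3CL1), did not overlap between the groups either. Its level was 5.43, 8.70, 12.3, 10.6 and 10.3 FPKM in Irs1 KO livers, against 16.7 to 147.2 in controls with a median of 39.9. All 5 Irs1 KO livers were below the lowest control, sgLacZ 2 (log2 change −2.14, SE 0.54, limma adjusted p = 0.0103). Its ligand Cx3cl1 had a log2 change of −0.59 that did not pass (limma adjusted p = 0.387).

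In all, 4 of 40 members did not overlap between the Irs1 KO and control groups, against 7.45% of all genes. They included Ccr2, Cx3cr1 and Ccl6, a CCR1 ligand. Ccl6 was at 14.3, 7.32, 12.5, 12.4 and 10.3 FPKM in Irs1 KO livers and at 20.0 to 24.5 in all 6 controls. The control values were tight, but the pooled spread of all groups was wide, and its log2 change of −1.01 did not pass (limma adjusted p = 0.105).

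Ccl5, a chemokine made by T cells and natural killer cells that binds CCR1, had the smallest adjusted p of the members in this comparison. It was at 2.15, 10.6, 0, 7.82 and 0 FPKM in the Irs1 KO livers, and the controls ran from 8.66 to 29.7 with a median of 12.7. Replicate 2 lay within the control range and the other 4 livers below it (log2 change −2.29, SE 0.50, limma adjusted p = 0.00302). It rested on few reads: 0 to 14 per Irs1 KO liver against 12 to 42 per control liver. Fitted on these 2 groups alone, Ccl5 had a limma adjusted p of 0.0549.

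**Figure D3:**
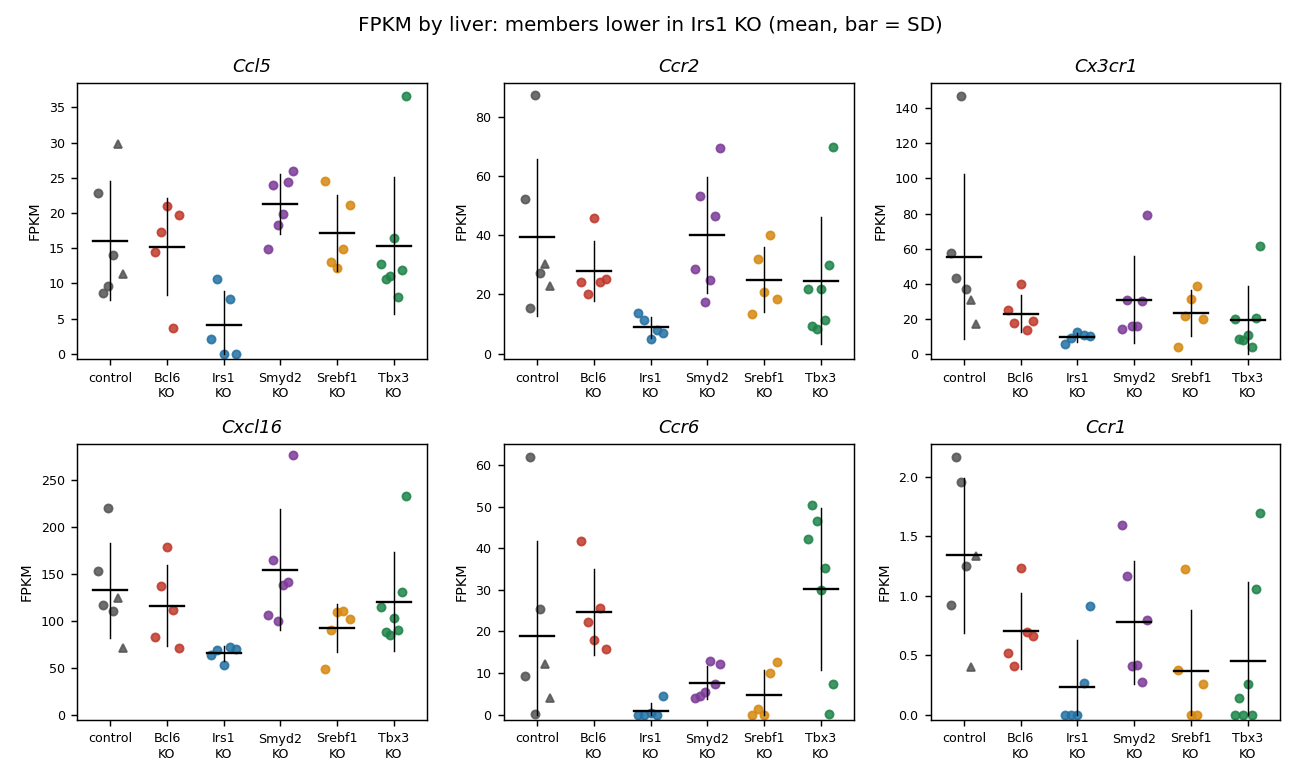
FPKM of 6 members that were lower in Irs1 KO livers, in each of the 34 livers (points; triangles are sgLacZ livers), with the group mean (horizontal line) and SD (vertical bar). For Ccr2 and Cx3cr1 every Irs1 KO liver lies below every control, while Ccl5, Cxcl16, Ccr6 and Ccr1 overlap. The highest control value of Ccr2 and Cx3cr1 comes from 1 liver, sgGFP 3.

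Cxcl16 fell from 132 ± 50.2 FPKM in controls (SD, n = 6) to 65.4 ± 7.72 in Irs1 KO livers (SD, n = 5). The log2 change of Cxcl16 was −0.93 with an SE of 0.28 (limma adjusted p = 0.0286). The highest Irs1 KO liver, at 72.1, was just above the lowest control, at 71.3. Its receptor Cxcr6 had a log2 change of −0.59 that did not pass (adjusted p = 0.242). The start of Cxcl16 overlaps that of Zmynd15 on the other strand, and the sources used here do not state whether reads were counted by strand.

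Ccr6, the receptor for CCL20, was at 0 in 3 Irs1 KO livers and at 0.463 and 4.44 in the other two. Its controls were scattered from 0.191 to 62.0 FPKM with a median of 10.7. The controls sgGFP 3 and sgLacZ 2 lay below the highest Irs1 KO liver, so the groups overlapped (log2 change −2.80, SE 0.87, limma adjusted p = 0.0335). Its ligand Ccl20 was under the filter.

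Ccr1, a receptor of neutrophils and monocytes, was low everywhere, at 0.236 ± 0.396 FPKM in Irs1 KO livers (SD, n = 5) and 1.34 ± 0.654 in controls (SD, n = 6). That is 0 to 7 reads per Irs1 KO liver and 3 to 16 per control liver, and its log2 change was −0.92 (limma adjusted p = 0.0336). Ccl7, a CCR2 ligand, was listed at 0 in all 5 Irs1 KO livers. A count of 0 allows up to 3 reads, or 1.44 FPKM, in a liver, by counting error only. Among the controls Ccl7 was above 0 in the 4 sgGFP livers, at 0.984 to 4.31 FPKM, and at 0 in both sgLacZ livers. Its call (limma adjusted p = 0.0434) thus rested on 21 control reads in all.

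Ccl25, the ligand of CCR9 best known from thymus and small intestine, was the only member called higher. It was at 103.0, 44.6, 81.4, 86.6 and 60.5 FPKM in the Irs1 KO livers, against 36.6 to 50.3 in controls. Replicate 2 lay within the control range and the other 4 above it. For Ccl25 this was a log2 change of 0.81 with an SE of 0.21 (limma adjusted p = 0.0109). Its receptor Ccr9 did not pass, at −0.37 (adjusted p = 0.351). The start of Ccl25 overlaps that of Elavl1 on the other strand.

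The calls for Ccl5, Ccr2, Cx3cr1 and Ccl25 held when each liver of the Irs1 KO and control groups was left out in turn. Ccl7, Ccr1, Ccr6 and Cxcl16 lost the threshold under some of these omissions, so that 4 to 8 members were called lower. Median scaling and quantile normalization each left 6, with Ccl7 (limma adjusted p = 0.0591 and 0.0525) and Ccr1 (0.0535 and 0.1002) no longer past the threshold, and a filter at FPKM 5 left both untested. Ccl7 was also lost with a pseudocount of 0.1 (0.0693) and, together with Ccr6, without a filter (0.0509). The count was 5 without sgGFP 1, sgGFP 3, Irs1 KO 2 or Irs1 KO 4, and 4 without Irs1 KO 1 or Irs1 KO 3.

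Members of other roles mostly did not pass in Irs1 KO livers. Among the 3 tested neutrophil attractants none passed, with log2 changes of −0.39 for Cxcl1 and −1.01 for Cxcl2 (limma adjusted p = 0.553 and 0.0713). Cxcl2 was called lower under some other settings, namely a pseudocount of 0.1, a replicate block, and sgGFP 2 left out. Ccl2 itself had a log2 change of −0.78 (SE 0.59, adjusted p = 0.435) and was at 3.78, 0, 1.36, 0 and 5.95 FPKM, spanning the control range of 1.40 to 4.68. Cxcl12 did not pass, with 297 ± 21.4 FPKM (SD, n = 5) against 259 ± 28.0 (SD, n = 6), and its receptor Cxcr4 had a log2 change of −1.30 with an SE of 0.75 (adjusted p = 0.282).

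Markers of 2 macrophage lists were also lower in Irs1 KO livers, where 7.61% of all genes were called lower and 3.24% higher. Of 11 general macrophage markers 7 fell, led by Csf1r, the receptor for the macrophage growth factor (log2 change −0.98, limma adjusted p = 0.00344), and Laptm5 (−1.12, 0.0133). Their summed FPKM was 601.2 to 981.9 in Irs1 KO livers and 1005 to 2142 in controls. Of 10 markers of lipid-associated macrophages, the macrophages that appear in fatty tissue, 7 fell, led by Gpnmb (−3.50, adjusted p = 0.00453) and Cd63 (−2.06, 0.00517), with sums of 124.1 to 313.8 against 269.9 to 928.2. Of 6 tested monocyte markers 1 fell, F13a1 (−1.52, adjusted p = 0.0283), and 1 rose, Fn1 (0.50, 0.000285), a gene that hepatocytes also express. The summed FPKM of the monocyte list was 19710 to 23780 in Irs1 KO livers and 12740 to 16470 in controls, of which Fn1 made up nearly all, and Ly6c2 was at 0 in all Irs1 KO livers. All 11 general macrophage markers were below 0 in Irs1, Srebf1 and Tbx3 KO livers, against 5 in Bcl6 KO and 2 in Smyd2 KO. All 10 lipid-associated markers were below 0 in Irs1, Srebf1 and Smyd2 KO livers, with 9 in Tbx3 KO and 7 in Bcl6 KO.

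Kupffer cell markers gave other values. Of their 10 markers 1 was called higher in Irs1 KO livers (Cd163, log2 change 1.42, adjusted p = 0.0414) and none lower. An unadjusted limma p under 0.05 was reached by 6 of the 10, against 25.2% of all genes. Of the 10 log2 changes 5 were below 0. Their sum of FPKM was 1141 to 1658 in Irs1 KO livers and 1183 to 1799 in controls. The median log2 change over the list was −0.11. Clec4f, which defines Kupffer cells but is 1 of the 10 markers only, had a log2 change of 0.03 (limma adjusted p = 0.924). Of 7 dendritic cell markers 2 fell, Zbtb46 (−0.86, 0.000867) and Siglech (−1.40, 0.0143), and of 10 stellate cell and fibroblast markers 6 fell, led by Col3a1 (−2.40) and Col1a2 (−2.25). Of 10 sinusoidal endothelium markers 2 fell (Lyve1 and Pecam1), and of 8 cholangiocyte markers 1 fell (Spp1). None of 8 tested T cell markers passed, 1 of 8 natural killer cell markers fell (Klrd1) and 1 of 6 B cell markers fell (Pax5), while 5 of 10 hepatocyte markers rose. None of 6 tested neutrophil markers passed. Ly6g and Retnlg were at 0 in all Irs1 KO livers, but also in all Srebf1 KO livers, and Ly6g in all Bcl6 KO livers. The 10 stellate cell and fibroblast markers were all below 0 in Irs1 and Bcl6 KO livers. In Srebf1 and Tbx3 KO livers 9 were, 3 of them called lower in Tbx3 KO, and in Smyd2 KO 7 were. The part that these cell lists have in the fall of the chemokine receptors was not tested.

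Pathway genes around the members were in part lower as well in Irs1 KO livers, where 7.61% of all genes were called lower. Of 21 tested genes of receptor signalling and ligand processing 8 fell and none rose, led by Elmo1 (log2 change −1.08, limma adjusted p = 0.00272), which links receptors to the cytoskeleton, and the integrin gene Itga4 (−0.80, 0.00361). All 21 had a log2 change below 0. Of 18 inducers of chemokine genes 5 fell, led by the transcription factor gene Jun (−1.47, limma adjusted p = 0.000695) and the NF-kB inhibitor gene Tnfaip3 (−1.33, 0.00748). Of 8 adhesion molecules for leukocyte entry 2 fell, Vcam1 (−1.44, 0.00395) and Pecam1 (−0.51, 0.0203). None of 10 atypical receptors and chemokines outside the rule, such as Ackr genes and Pf4, passed. The signalling and processing genes were also below 0 for 21 of 21 in Srebf1 KO and 19 in Tbx3 KO livers, without a call. In Bcl6 KO and Smyd2 KO livers 11 each were below 0.

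In Bcl6 KO livers 1 member rose, Ccl9, and none fell. Ccl9, also called MIP-1 gamma, is a mouse chemokine that acts through CCR1. It was at 170.0, 149.0, 155.6, 168.6 and 148.6 FPKM in the 5 livers, against 51.1 to 76.7 in the controls with a median of 65.9. The lowest Bcl6 KO liver was well above the highest control, and the nearest livers of other knockouts were Smyd2 KO 6 at 145.7 and Tbx3 KO 7 at 139.6. This was a log2 change of 1.29 with an SE of 0.21 (limma adjusted p = 8.07e-05), and the reads behind it were 1169 to 1400 per Bcl6 KO liver and 353 to 601 per control. The call held without any single liver, with log2 changes of 1.23 to 1.34.

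For the Bcl6 comparison, 1 of 40 members (2.5%) was called higher, where 2.95% of all genes were, and 0 lower, where 3.19% were. The 2 members that did not overlap the controls were Ccl9 and Ccl25, or 5.0%, against 4.27% of all genes. An unadjusted p under 0.05 was reached by 4 of 40 members, against 18.1% of all genes, a smaller share than among all genes. The neighbours of Ccl9 in the chromosome 11 block did not pass: Ccl6 had a log2 change of −0.21 and Ccl5 of −0.12.

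Cxcl9, Cxcl10 and Cxcl11 are interferon-induced genes of the CXCR3 ligand group, and their log2 changes were all above 0 in Bcl6 KO livers without passing. Cxcl11 is annotated on mm10 as a polymorphic pseudogene, so its values are given as RNA only. Cxcl11 was at 29.4, 21.0, 20.9, 29.3 and 24.7 FPKM against 9.76 to 26.3 in controls, with a log2 change of 0.74 (SE 0.23, limma adjusted p = 0.0509). Cxcl9 was at 28.9, 34.5, 56.0, 32.2 and 40.5 FPKM against 14.9 to 29.1, with a log2 change of 0.80 (SE 0.39, adjusted p = 0.269). Cxcl10 had a log2 change of 0.41 (adjusted p = 0.624). Cxcl11 passed the threshold without sgGFP 2, its highest control (adjusted p = 0.0111). Cxcl10 and Cxcl11 lie within Art3 on the other strand.

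Ccl25 was lower in all 5 Bcl6 KO livers (23.9, 34.6, 33.7, 20.6 and 21.7 FPKM) than in any control (36.6 to 50.3), but its log2 change of −0.62 (SE 0.21) did not pass (limma adjusted p = 0.0713). Ccr2, at 27.9 ± 10.2 FPKM (SD, n = 5), did not pass either (limma adjusted p = 0.791).

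Other lists also held called genes in Bcl6 KO livers, where 2.95% of all genes were called higher and 3.19% lower. Of 10 hepatocyte markers 7 rose, led by Alb (log2 change 1.51) and Trf (1.07), and of 10 sinusoidal endothelium markers 4 rose, led by Clec4g (0.81, limma adjusted p = 0.00903) and Stab2 (0.42, 0.00937). Of 11 general macrophage markers none passed. In the Kupffer cell list C6 fell (−1.50, adjusted p = 0.00475) and Slc40a1 rose (0.50, 0.0389). Of 18 inducers of chemokine genes 1 rose, Irf1 (0.60, adjusted p = 0.0445), an interferon-induced transcription factor. Of these 18 log2 changes, 12 were below 0, with a median of −0.108. Of 10 atypical receptors and chemokines outside the rule 1 fell, the chemerin gene Rarres2 (−0.36, 0.0118). Of 8 cholangiocyte markers 1 fell, Sox9 (−1.27, adjusted p = 0.0209), and all 8 log2 changes were below 0 with a median of −1.09. Of 10 stellate cell and fibroblast markers 1 fell, Lrat (−0.75, 0.0196), and all 10 were below 0 with a median of −0.58. The part of these shifts in the rise of Ccl9 was not tested.

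**Figure D4:**
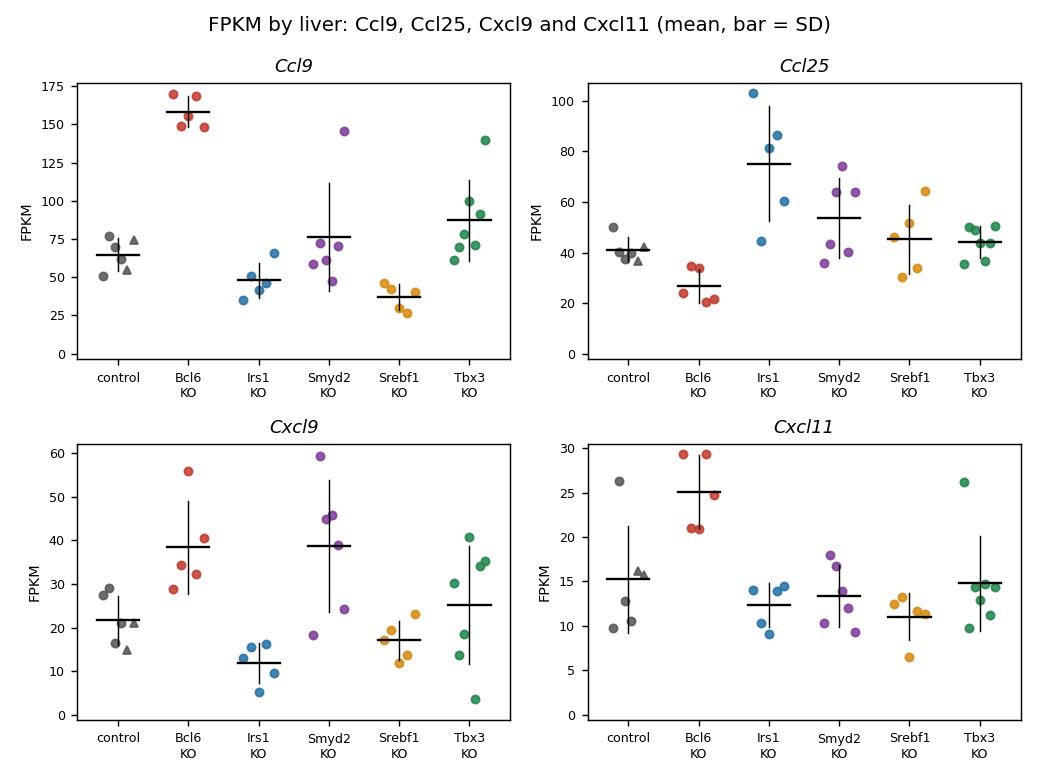
FPKM of Ccl9, Ccl25, Cxcl9 and Cxcl11 in each of the 34 livers (points; triangles are sgLacZ livers), with the group mean (horizontal line) and SD (vertical bar). All 5 Bcl6 KO livers lie at 148.6 FPKM of Ccl9 or more, above every other liver, while for Ccl25 the Bcl6 KO livers are below and 4 of 5 Irs1 KO livers above all controls.

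In Smyd2 KO livers 0 of 40 members passed in either direction by limma, and 0% of all genes did. An unadjusted p under 0.05 was reached by 3 members (7.5%), against 7.17% of all genes. No member was without overlap, against 0.347% of all genes. The 3 members were Ccl3, a CCR1 ligand (log2 change 1.04, adjusted p = 0.514), Ccl7 (−0.90, 0.558) and Ccr10 (0.88, 0.637). The median over the members was 0.044. Cxcl9 was at 18.3 to 59.4 FPKM with a median of 42.0, against 14.9 to 29.1 in controls, a log2 change of 0.75 that did not pass (adjusted p = 0.694). Ccl2 had a log2 change of 0.00 (SE 0.56, adjusted p of 1), and its sign turned under several other settings.

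In Srebf1 KO livers 0 of 40 members were called higher and 0 lower, against 0.197% and 0.181% of all genes. An unadjusted p under 0.05 was reached by 8 members (20.0%), against 13.1% of all genes. Without the library labelled Srebf1 KO 1 it was reached by 4 members, or 10%, against 11% of all genes. Ccl9 was at 46.1, 42.5, 30.0, 26.4 and 40.3 FPKM, below all 6 controls. Its log2 change of −0.80 (SE 0.21) did not pass, with a limma adjusted p of 0.0830. When the library labelled Srebf1 KO 1 was left out, Ccl9 stood at −0.89 (limma adjusted p = 0.0828). In all, 3 of 40 members were without overlap (7.5%), Ccl9 and Ccl6 among them, against 1.95% of all genes, and without that library the count was again 3, against 2.64%.

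Ccl22, a CCR4 ligand made by dendritic cells and macrophages, was listed at 0 in all 5 Srebf1 KO livers and at up to 3.50 FPKM in controls, of which sgGFP 4 was at 0 too. Its adjusted p was 0.117, 0.210 without Srebf1 KO 1 and 0.0347 without sgGFP 4. Of 10 markers of lipid-associated macrophages 1 passed in Srebf1 KO livers, Fabp5 (log2 change −2.24, limma adjusted p = 0.0228), with a median of −1.51 over the list. Without Srebf1 KO 1, Fabp5 stood at −2.42 (adjusted p = 0.0209) and the median at −1.21. The summed FPKM of that list was 122.0 to 229.2, below every control, and 168.2 to 229.2 without that library. Cxcl9 had a log2 change of −0.32 (adjusted p = 0.765) and Ccl2 of −0.22 (0.913). With Srebf1 KO 1 left out, Cxcl9 was at −0.33 (0.806) and Ccl2 turned to 0.02.

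In Tbx3 KO livers 0 of 40 members were called higher and 0 lower, against 1.17% and 1.37% of all genes. An unadjusted p under 0.05 was reached by 8 members (20.0%), against 17.5% of all genes. Every member overlapped the controls, where 0.829% of all genes did not. Cx3cr1 ran from 3.97 to 61.5 FPKM with a median of 10.9, and 6 of the 7 livers were below the mean of the controls. Cx3cr1 thus had a log2 change of −1.62 (SE 0.50) without passing (limma adjusted p = 0.0731, and 0.04895 with Srebf1 KO 1 left out of the fit). The highest value came from Tbx3 KO 7, and without that liver 3 members were called lower, Cx3cr1 (limma adjusted p = 0.00955) and Ccr1 among them. In Tbx3 KO 7 the summed FPKM of the general macrophage list was 2702, the highest of the 7, where the median was 912.3.

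Ccl27a, a skin chemokine that binds CCR10, had the largest positive log2 change in Tbx3 KO livers, at 2.26 (SE 0.75), without passing (limma adjusted p = 0.0983). It ran from 6.75 to 44.1 FPKM, and the controls from 0 to 11.4. Its mean was 22.1 FPKM in Tbx3 KO and 21.2 in Irs1 KO livers, against 4.27 in controls. These 2 knockouts were not called different for Ccl27a (Irs1 KO minus Tbx3 KO −0.11, limma adjusted p = 0.975). The gene overlaps the end of Il11ra1, and its near-identical copy Ccl27b was listed at 0. Ccl2 and Cxcl9 stood at log2 changes of −0.12 and −0.03 (adjusted p = 0.939 and 0.981).

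A call in one knockout and not in another does not show a difference, so the knockouts were compared with each other. By limma's F test over the 5 knockout groups, which leaves the control level out, 8 of 40 members differed, where 14.5% of all genes did. These were Ccl9 (adjusted p = 1.19e-07), Ccl25 (0.000270), Ccl5 (0.00108), Ccr6 (0.00402), Cxcl11 (0.00771), Cxcl9 (0.00904), Ccr2 (0.0171) and Cxcl16 (0.0339). Over the 10 pairs of knockouts there were 27 calls for members. Without Srebf1 KO 1 the same 8 members passed the F test, and there were 25 calls over the pairs. With each knockout liver left out in turn, 6 to 9 members passed and there were 22 to 34 calls over the pairs. Cxcl16 was lost from the F test whichever Irs1 KO liver was left out, without Smyd2 KO 2 or 6, and without a filter. Ccr2 was lost without Irs1 KO 3.

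Ccl9 separated Bcl6 KO from each of the other 4 knockouts, with log2 differences from 0.90 (against Tbx3 KO, limma adjusted p = 0.00328) to 2.09 (against Srebf1 KO). It was also lower in Srebf1 KO than in Tbx3 KO by 1.20 and lower in Irs1 KO than in Tbx3 KO by 0.83. The order of its means ran from 37.1 FPKM in Srebf1 KO through 48.0 in Irs1 KO, 76.0 in Smyd2 KO and 87.3 in Tbx3 KO to 158 in Bcl6 KO. Neighbours in that order were not called different, except Tbx3 KO and Bcl6 KO. Without Srebf1 KO 1 the Srebf1 KO mean of Ccl9 was 34.8 FPKM, its calls against Bcl6 and Tbx3 KO held, and it was also called lower than in Smyd2 KO (adjusted p = 0.0379).

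Ccl25 was lower in Bcl6 KO than in each of the other 4, with log2 differences of −1.42 against Irs1 KO and of −0.71 to −0.95 against the rest. Its call against Srebf1 KO was lost without Srebf1 KO 1, and so was that of Ccr6 for the same pair. Cxcl11 was higher in Bcl6 KO than in each of the other 4, by 0.76 to 1.13 on the log2 scale. Ccl5 was lower in Irs1 KO than in each of the other 4, with log2 differences of −2.21 to −2.78 against Smyd2, Srebf1 and Tbx3 KO, and was 2.17 higher in Bcl6 KO than in Irs1 KO. Bcl6 KO and Irs1 KO livers also differed for Cxcl9 (log2 difference 1.67, adjusted p = 0.00554), Cxcl11 (0.97, 0.00685), Ccr2 (1.56, 0.0219) and Ccr6 (4.00, 0.00281).

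Smyd2 KO and Irs1 KO differed for 4 members. The log2 difference, Irs1 KO minus Smyd2 KO, was −1.98 for Ccr2 (limma adjusted p = 0.00987), −1.61 for Cxcl9 (0.0178), −1.15 for Cxcl16 (0.0185) and −2.78 for Ccl5 (0.00162). The F test among the knockouts did not pass for Cx3cr1 (limma adjusted p = 0.297), Ccr1 (0.499) or Ccl7 (0.570). Their falls in Irs1 KO livers were thus not shown to differ from the values in the other knockouts. Ccl25 was higher in Irs1 KO than in Tbx3 KO livers (limma adjusted p = 0.0459). It was not called different between Irs1 KO and Smyd2 KO (0.186) or Srebf1 KO livers (0.0865). The share of all genes called in a pair ran from 0.0777% for Smyd2 KO against Srebf1 KO to 11.3% for Bcl6 KO against Irs1 KO. It was 5.83% for Bcl6 KO against Smyd2 KO (3 members called), 8.76% against Srebf1 KO (4), and 9.31% against Tbx3 KO (3). For Irs1 KO it was 4.26% against Smyd2 KO (4 members), 1.60% against Srebf1 KO (1) and 2.81% against Tbx3 KO (4). For Srebf1 KO against Tbx3 KO it was 0.943% (1 member). Without Srebf1 KO 1 the members called were 2 for Bcl6 KO against Srebf1 KO, and 1 each for Irs1, Smyd2 and Tbx3 KO against Srebf1 KO.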

How the data were processed

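Total liver RNA was extracted with TRIzol and an RNeasy column and made into libraries with a stranded total RNA kit, per the labels' protocols. The authors deposited 1 table of FPKM values per gene symbol and library. The submitters' processing notes name featureCounts 1.6.4 and the builds mm10 and GRCh38 without roles. An aligner, a gene annotation and whether counting used strand are not named in the sources used here, so reads of overlapping genes on opposite strands may not be separated. Of the tested members, 24 hold 1 FPKM value per library and 16 hold values of the kind a sum over several entries gives. The 16 include Ccr2, Cx3cr1, Cxcl16, Ccr6, Ccl25, Cxcl12 and Ccl27a, and the 24 include Ccl5, Ccl7, Ccl9 and Ccr1. All 34 columns were matched to samples by title. No pair of libraries was identical (highest pairwise Pearson r 0.9835). The labels give 1 liver per sample but do not say that the mice came from separate litters or batches, so the p-values cover the spread among these libraries, which may be partly technical.

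log2(FPKM + 1) was fitted with limma 3.58.1 in R 4.3.3 (empirical Bayes with an intensity trend, two-sided) over all 34 livers with 6 group levels, since the groups then share 1 estimate of the spread. Genes with an FPKM of at least 1 in at least 5 libraries were kept, and p-values were adjusted by Benjamini-Hochberg over all of them. The knockouts were also compared by the F test and in pairs. The scripts were tested on simulated data. The depth of each library came from FPKM steps within 0.03 reads of a whole number. Reads per gene were recovered for 17 members only, with a wider tolerance, and were used as a description. Tables and plots were made with Python 3.11.15, pandas 2.3.3, numpy 2.4.6 and matplotlib 3.10.9. Promoter windows come from RefSeq on GRCm38.p6, where 41 members matched by symbol.

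A few genes are not reported here by name or value, though counts over the members and lists include them. The members and all gene lists were chosen with earlier results of these data known. Named members are Ccl2 and Cxcl9, every member that passed in a knockout, the 8 most abundant, the 3 of smallest p where fewer than 3 passed, the members past the F test, and at most 2 genes of each other list. Members named beyond that, such as ligands or receptors of a named member and members without overlap, were chosen after their values were seen, to complete a role. Alternatives were another pseudocount, other filters and scalings, the sgGFP livers alone as control, a replicate block, each comparison fitted alone, and leaving out each liver. Leaving out Srebf1 KO 1 everywhere was added after seeing the data.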

Additional observations from a re-analysis of the deposited data

Results flagged for a closer look

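In 13 of 112 groups of 5 to 7 livers, 1 liver lay far from the others by Dixon's test at the 95% level. The test used the log2(FPKM + 1) scale, and chance gives about 1 in 20 only for normally distributed values. Ccl9 was at 145.7 FPKM in Smyd2 KO 6, the highest of its group. Cxcl16 was at 233.2 in Tbx3 KO 7, the highest of its group, and at 48.28 in Srebf1 KO 1, the lowest of its group. Cxcl11 stood at 26.21 in Tbx3 KO 1 (highest) and at 6.533 in Srebf1 KO 3 (lowest), and Cxcl12 at 199.8 in Srebf1 KO 3 (lowest). Ccr2 was at 45.9 in Bcl6 KO 3 (highest), Ccl5 at 3.715 in Bcl6 KO 4 (lowest), Ccl27a at 4.894 in Smyd2 KO 6 (lowest) and Ccr6 at 4.442 in Irs1 KO 5 (highest). Ccl3 was the single value above 0 in 3 groups, at 0.4766 in sgLacZ 1, 0.9247 in Bcl6 KO 1 and 1.928 in Irs1 KO 1. With every other liver of the group at 0, such a value is flagged whatever its size.

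The level of 8 members differed among the 5 knockouts by limma's F test. The adjusted p was 1.19e-07 for Ccl9, 0.00027 for Ccl25, 0.00108 for Ccl5, 0.00402 for Ccr6, 0.00771 for Cxcl11, 0.00904 for Cxcl9, 0.0171 for Ccr2 and 0.0339 for Cxcl16.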

How the results depend on the processing

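The Bcl6 KO call of Ccl9 and the Irs1 KO calls of Ccl5, Ccr2, Cx3cr1 and Ccl25 held in every leave-one-out fit. The count called higher in Bcl6 KO was 2 with a filter at FPKM 5, with median scaling and with quantile normalization, Cxcl11 being added, and 1 to 2 with each liver left out (2 without sgGFP 2). In Irs1 KO, 2 were called higher with the sgGFP livers alone as control (Cxcl17 added). The count called lower was 10 with that control (Ccl22 and Cxcr2 added) and 10 with the replicate block (Ccl6 and Cxcl2 added). A pseudocount of 0.1 gave 9 (Cxcl2 and Xcr1 added, Ccl7 lost), and no filter gave 7 (Ccl22 added, Ccl7 and Ccr6 lost). The count lower was 5 in the fit of the 2 groups alone, which lost Ccl5, Ccl7, Ccr1 and Ccr6 and gained Ccl6. It was 6 with median scaling and with quantile normalization, which lost Ccl7 and Ccr1, and with a filter at FPKM 5, which left both untested. With each liver left out the count lower was 4 to 8. In Srebf1 KO, 1 was called lower with a replicate block (Ccl9) and 1 against sgGFP alone (Ccl7), and 0 to 1 with each liver left out (Ccl22 without sgGFP 4). In Tbx3 KO, 4 were called lower with the replicate block (Ccr1, Ccr2 and Cx3cr1 among them), 2 against sgGFP alone (Ccl7 and Cx3cr1), 1 with Srebf1 KO 1 left out everywhere (Cx3cr1; chosen after seeing the data), and 0 to 3 with each liver left out. The 3 came without Tbx3 KO 7, and Cx3cr1 was called without sgLacZ 2. The cause was not tested. Over 83 same-numbered pairs of livers the deviations from the group mean correlated at r of −0.163 to 0.162. The median was −0.005, and 2 pairs exceeded 0.1. Differently numbered pairs were not compared, so these values cannot show whether replicate numbers pair the samples.

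Small changes turned sign. Ccl2 in Smyd2 KO was −0.411 with a pseudocount of 0.1, −0.331 with the replicate block, −0.0738 against sgGFP alone, and −0.2424 to 0.414 with each liver left out. Ccl2 in Tbx3 KO was 0.0799 after quantile normalization and −0.4075 to 0.1998 with each liver left out, and in Srebf1 KO it was −0.4048 to 0.0153. Cxcl9 in Tbx3 KO was 0.0746 with median scaling, 0.1191 after quantile normalization, and −0.186 to 0.3453 with each liver left out. Depth limits Ccl7, Ccr1 and Ccl5, which rest on few reads.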
